A study of Mus musculus with 4 samples.

Results

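The 9 axonal adhesion genes Cntn1, Cntn2, Ank2, Ank3, Cadm3, Nrcam, L1cam, Ncam1 and Gpm6a were followed across 4 cell classes of mouse medulloblastoma. They were chosen by name, and all 9 are among the 15002 genes listed for each tumour. Single cells of 4 tumours were profiled by Drop-seq, which counts the 3′ ends of transcripts as unique molecular identifiers (UMIs) per cell barcode. Barcodes with at least 500 UMIs were used, which left 3222 of 6734. The mice, untreated and aged 16 postnatal days, combined hGFAP-Cre with SmoM2 and with the floxed kinase alleles Prkaa1fl/fl and Prkaa2fl/fl, in all 4 cases. SmoM2 is an activated form of Smoothened that turns on Sonic hedgehog signalling, and Prkaa1 and Prkaa2 encode the catalytic subunits of AMP-activated protein kinase. The Cre driver acts in neural stem cells and so in many of their neuronal and glial descendants, not in granule-cell progenitors alone. Since all 4 tumours carry the same alleles, no value here shows what the deletion of either kinase gene does.

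These genes encode parts of the adhesion machinery of growing axons. Contactins (Cntn1, Cntn2) are immunoglobulin-domain proteins held on the outer membrane by a lipid anchor. The L1 family (Nrcam, L1cam) and Ncam1 are immunoglobulin-domain adhesion proteins that mostly cross the membrane, and Cadm3 binds related proteins on neighbouring neurons. The tails of L1-family proteins bind ankyrins (Ank2, or ankyrin-B, and Ank3, or ankyrin-G), which tie them to the spectrin skeleton under the membrane. Gpm6a is a proteolipid of the neuronal membrane that promotes outgrowth of neurites. In the developing cerebellum, granule-cell progenitors divide near the surface, leave the cell cycle, extend parallel fibres and migrate inwards. Cntn2 is a textbook marker of the young granule neurons that have just stopped dividing.

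In the GRCm38 annotation (GENCODE M21, the same assembly as the mm10 named in the submitters' processing notes), all 9 are protein-coding genes. Cntn2 lies at chr1:132509427-132543256 on the minus strand, with 22 exons in its longest transcript, and Cadm3 at chr1:173333258-173367695 on the minus strand. Cntn1 lies at chr15:92051165-92341967 on the plus strand, Nrcam at chr12:44328885-44601964 on the plus strand, L1cam at chrX:73853778-73896105 on the minus strand and Ncam1 at chr9:49502136-49798925 on the minus strand. Gpm6a lies at chr8:54954843-55060871 on the plus strand. The ankyrin genes are the longest of the set, Ank2 at chr3:126921612-127499350 on the minus strand (577.7 kb) and Ank3 at chr10:69398773-70027438 on the plus strand (628.7 kb). The spans of Cadm3 and L1cam overlap those of other protein-coding genes. Over the 4 classes Aim2, which overlaps Cadm3 on the opposite strand, had 9 UMIs against 324 for Cadm3, and Arhgap4, which overlaps L1cam, had 0 against 88. Ackr1, which overlaps Cadm3 on the same strand near its 3′ end, Tmem81 near the 3′ end of Cntn2 and Avpr2, which overlaps L1cam, were not analysed here, so their part in the 3′ counts was not tested.

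The sequences before the start sites of 3 members that differed strongly between the classes are shown, to let the motifs of neuronal and hedgehog-linked factors be read in place. Each line holds the 250 bases before the start in RefSeq (GRCm38.p6), on the gene's own strand. Capitals mark the E-box letters CAGATG or CAGCTG, the kind bound by factors such as Neurod1, searched on both strands.
Cntn2 (chr1:132542941-132543190, minus strand): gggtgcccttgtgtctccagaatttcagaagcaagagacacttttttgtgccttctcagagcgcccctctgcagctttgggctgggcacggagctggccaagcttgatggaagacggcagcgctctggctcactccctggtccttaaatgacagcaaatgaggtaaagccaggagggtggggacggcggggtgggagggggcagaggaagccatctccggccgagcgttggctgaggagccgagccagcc
Cadm3 (chr1:173367696-173367945, minus strand): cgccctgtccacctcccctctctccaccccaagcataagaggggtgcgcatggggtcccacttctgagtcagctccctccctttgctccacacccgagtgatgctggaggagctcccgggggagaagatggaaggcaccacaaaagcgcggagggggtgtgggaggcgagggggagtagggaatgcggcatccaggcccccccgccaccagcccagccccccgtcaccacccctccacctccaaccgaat
L1cam (chrX:73880791-73881040, minus strand): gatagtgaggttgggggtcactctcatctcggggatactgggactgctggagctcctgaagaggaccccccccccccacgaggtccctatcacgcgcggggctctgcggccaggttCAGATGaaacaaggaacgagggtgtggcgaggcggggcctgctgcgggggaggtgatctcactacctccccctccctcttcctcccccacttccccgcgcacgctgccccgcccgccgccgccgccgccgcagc

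L1cam held 1 CAGATG, whose first base lies 134 bases before the start, and the stretches of Cntn2 and Cadm3 held neither E-box. In windows of 300 bases, which run 50 bases past the start, CAGATG occurred in 17.2% and CAGCTG in 16.3% of the 32851 RefSeq promoters. The GLI-site letters TGGGTGGTC occurred in 0.253% and the full palindrome of the NFI site in 0.0365%. Of the 7 members with a RefSeq window (Ank3 and Ncam1 had none in the table), matches were found in L1cam and in 2 inner starts of Ank2 only. The stretches printed for L1cam and Cntn2 lie inside the spans that GENCODE gives for these genes, so they are upstream of the RefSeq starts only. These matches are letters in a window, and binding was not measured.

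The 4 libraries held 766, 807, 566 and 1083 barcodes of at least 500 UMIs, with 723661, 528971 and 1253618 UMIs in tumours 2, 3 and 4 and 766276 in tumour 1. Tumours 1 and 2 stood apart from tumours 3 and 4: mitochondrial transcripts took 12.1% and 12.7% of their UMIs, compared with 2.68% and 2.13%. The labels give no batch, so whatever separates these pairs cannot be told apart from differences between tumours, and values for the pairs are given where a call depends on them. No barcode of at least 500 UMIs was shared by 2 tumours. Levels are given as UMIs per 1000000 UMIs (CPM). Prkaa1 had 3 to 16 UMIs and Prkaa2 5 to 14 UMIs per tumour. Reads of 3′ libraries can lie outside a deleted exon, so these counts check neither deletion. The labels do not say that the libraries came from separate litters or preparations. With the tumour as a block, p-values measure only the spread of class differences over these 4 samples, not the differences between tumours.

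Cells were placed in classes by marker genes that include none of the 9 members. Limits were set in UMIs per 1000 nuclear UMIs. Cells with at least 15 UMIs of S, G2 and M phase markers and below 25 of neuronal markers were called dividing (1318 cells). Cells below both limits, but with at least 5 UMIs of granule-lineage progenitor markers, were called non-dividing (786 cells). That list has 21 genes, among them Gli1, Atoh1, Pax6 and Zic1. Cells below the dividing limit and with at least 25 UMIs of neuronal markers such as Neurod1 and Tubb3 were neuronal. Within each tumour they were ranked by the late share of their neuronal markers. The lowest of 3 equal groups was called early neuronal (288 cells) and the highest late neuronal (284 cells), with the middle group left out. A further 57 cells above both limits were left out as well; Cntn2 was at 535 ± 469 CPM and Ank3 at 1023 ± 153 CPM in them (SD, n = 4), on 36 and 51 UMIs. The names rest on this rule: 133 dividing, 202 non-dividing, 43 early and 33 late neuronal cells lie within 2.5 UMIs per 1000 of a limit. The late class held UMIs of 40 of the 41 late markers in the tables. Cbln3, a gene of mature granule neurons, had 0 UMIs there, as in dividing and early neuronal cells. Granule-lineage progenitor markers took between 10770 and 15430 CPM in the late class. Per 1000 nuclear UMIs they took 11.9 in dividing, 13.6 in non-dividing, 13.9 in early and 14.0 in late neuronal cells. They therefore do not separate the classes. The name late is relative to the early class, and the maturity of these cells was not tested.

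Over all cells, the members were detected at widely different depths, from 134 UMIs of L1cam and 149 of Cntn1 to 1932 of Cntn2 and 1996 of Ank3. The level of Cntn2, in tumours 1 to 4, was 1086, 884, 310 and 236 CPM. Both tumours with the high mitochondrial share were therefore above both others. The same order held for Cntn1 (86.1, 66.3, 18.9 and 19.9 CPM), Nrcam (259.7, 250.1, 88.9 and 103.7 CPM), Ank2 (544, 370, 248 and 216 CPM), Ank3 (818, 724, 495 and 465 CPM) and Ncam1 (379.8, 384, 268 and 285 CPM). Cadm3 (159, 131, 183 and 111 CPM), L1cam (63.9, 42.8, 45.4 and 23.9 CPM) and Gpm6a (289.7, 261, 295 and 229 CPM) did not separate the pairs. The part of the mitochondrial share in these differences was not tested. Neuronal cells, the middle group included, made up 26.6% of the cells and held 21.8% of all UMIs. They held 73.1% of the L1cam UMIs and 68.9% of the Cntn2 UMIs, between 44.1% and 60.3% of those of Cadm3, Ank2, Gpm6a, Nrcam and Ank3, and 36.9% and 33.2% of those of Cntn1 and Ncam1.

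All 9 members were higher in late neuronal than in dividing cells, with no overlap between the tumours of these classes. How many of all genes show no such overlap was not counted. By the test described below, which left out Cntn1, 16.4% of all genes tested were called higher. For most of the 9 members the largest step lay between non-dividing and early neuronal cells. Cntn2, on mean level, was 135 ± 78.7 CPM in dividing, 532 ± 442 in non-dividing, 1810 ± 1280 in early and 1551 ± 840.4 CPM in late neuronal cells (SD, n = 4 tumours). Its ratio of mean levels between non-dividing and dividing cells was 3.95, and 1.92 to 5.43 in single tumours. That of L1cam was 3.20, and 5.36 without tumour 2.

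**Figure D1:**
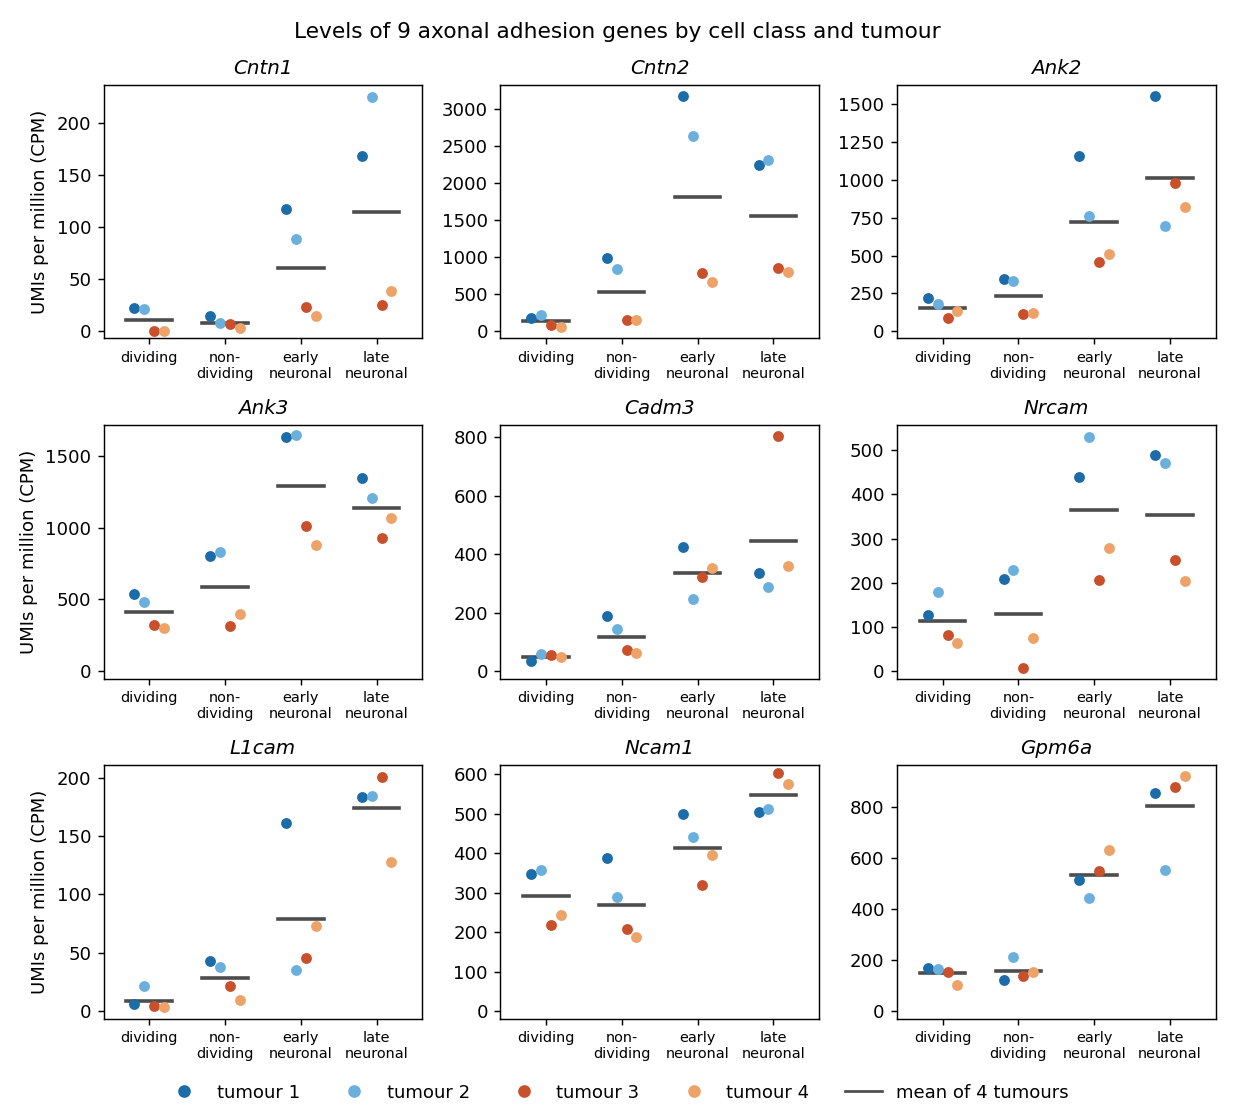
Levels of the 9 genes in CPM (y axis, linear, a scale for each gene) in the 4 cell classes (x axis). Points are tumours and bars their mean. For all 9 genes the lowest late neuronal value lies above the highest dividing value. How many other genes share such a gap was not counted.

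The contactins differed widely between tumours. Cntn2 stood at 181, 221, 78.3 and 58.8 CPM in the dividing cells of tumours 1 to 4 and at 980.1, 844, 150.5 and 155 CPM in their non-dividing cells. In early neuronal cells it reached 3167, 2637, 778 and 659 CPM, and in late neuronal cells 2242, 2313, 854 and 794 CPM. Each tumour rose from dividing to non-dividing to early neuronal cells, but the early values of tumours 3 and 4 lay below the non-dividing values of tumours 1 and 2. Cntn1, which is also known from oligodendrocyte precursors, was sparse, with 60 UMIs over the 4 classes. Its levels were 21.8, 21.2, 0 and 0 CPM in dividing cells and 168, 225, 25.1 and 38.4 CPM in late neuronal cells. The ranges of these classes did not overlap, but tumours 3 and 4 had few UMIs.

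The L1 family and Ncam1 stood at different levels in dividing cells, though no test was made between these genes. L1cam, an adhesion protein of growing and bundled axons, was at 6.23, 21.2, 4.35 and 3.27 CPM in dividing cells (12 UMIs in all) and at 183, 184, 201 and 128 CPM in late neuronal cells. In early neuronal cells it stood between, at 161, 35.4, 45.8 and 73.3 CPM, and tumour 1 there was close to the late values. Nrcam was at 128, 179, 82.7 and 63.7 CPM in dividing cells, and at 488, 471, 251 and 205 CPM in late neuronal cells. In the non-dividing cells of tumour 3 it was at 7.17 CPM, a single UMI, against 76.1 to 228 CPM in the others. Ncam1 was present in all classes, at 349, 358, 218 and 243 CPM in dividing cells and 503, 512, 602 and 576 CPM in late neuronal cells. It differed least between these classes, with a ratio of mean levels of 1.88 against 19.9 for L1cam, 11.5 for Cntn2 and 9.11 for Cadm3. The ratio of L1cam rests on few dividing UMIs: it was 8.68 to 46.2 in single tumours, and 37.0 without tumour 2.

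Cadm3 was at 34.3, 57.6, 56.6 and 47.4 CPM in dividing, 187, 144, 71.7 and 63.5 CPM in non-dividing and 425, 248, 320.5 and 352 CPM in early neuronal cells. These 3 ranges did not overlap. Late neuronal cells had 336, 287, 803 and 359 CPM, and tumour 3 was far above the rest. Among the ankyrins, Ank2 was at 218, 182, 87 and 135.5 CPM in dividing, 346, 334, 115 and 120.5 CPM in non-dividing, 1158, 761, 458 and 513 CPM in early and 1556, 696, 979 and 819.7 CPM in late neuronal cells. Ank3 was at 536, 479, 322 and 302 CPM in dividing and 1627, 1646, 1007 and 879 CPM in early neuronal cells. Its late neuronal levels of 1342, 1208, 929 and 1063 CPM were lower than the early ones in 3 of the 4 tumours. Gpm6a was at 171, 167, 152 and 101 CPM in dividing and 122.5, 213, 136 and 152 CPM in non-dividing cells, which overlapped. It was at 513, 442, 549 and 630.2 CPM in early and 854, 553, 879 and 922 CPM in late neuronal cells, higher in the late class in 4 of 4 tumours.

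Tests were made on counts summed per tumour and class, with edgeR's quasi-likelihood test, the tumour as a block and Benjamini-Hochberg adjustment over all 3244 genes tested. Class markers were left out of the counts of genes called, leaving 3114. Of the 9 members 8 passed the filter on low counts, and Cntn1 did not. The classes come from expression in the same cells, and the 9 genes were not used to build them.

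Between non-dividing and dividing cells, which differ in the cell cycle but lie below the same limit on neuronal markers, 3 of the 8 tested members were called, all higher in non-dividing cells (Cntn2, Cadm3 and Ank3). Of all genes tested 2.73% were called higher. Cntn2 rose by a log2 fold of 1.85 ± 0.19 (SE; adjusted p = 6.12e-12) and was higher in 4 of 4 tumours. Cadm3 rose by 1.11 ± 0.31 (adjusted p = 0.0105, 4 of 4 tumours) and Ank3 by 0.47 ± 0.15 (adjusted p = 0.0319, 3 of 4 tumours). L1cam had a log2 fold of 1.51 ± 0.63 and Ank2 one of 0.43 ± 0.21, which missed the threshold (adjusted p = 0.141 and 0.234). Nrcam, Gpm6a and Ncam1 had 0.17 ± 0.25, 0.11 ± 0.22 and -0.17 ± 0.17. The median log2 fold of the 8 was 0.45, beside 0.07 for all genes tested.

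These calls depended on how the classes were drawn. With Leiden clusters in place of marker classes the log2 fold of Cntn2 was 0.36 (adjusted p = 0.348), that of Cadm3 0.31 and that of Ank3 0.18, and 0 members were called. In that clustering 539 of the 786 non-dividing cells lay in the non-dividing cluster, 133 in the early neuronal one, 55 in the dividing ones and 18 in the late one, and 187 of the 1318 dividing cells lay in the non-dividing cluster. Within tumours 3 and 4 alone, Cadm3 (0.33, adjusted p = 0.741) and Ank3 (0.21, adjusted p = 0.61) were not called, and leaving out tumour 1 or tumour 2 ended both calls as well, while that of Cntn2 held. Without tumour 4 the call of Ank3 ended too (adjusted p = 0.123).

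Neuronal markers, measured in the same cells, were somewhat higher in the non-dividing class: their median was 12.8 UMIs per 1000 against 10.8 in dividing cells. Cells were therefore also compared within 2 ranges of neuronal share, a description added after the levels were seen. The medians of dividing and non-dividing cells were 7.09 and 7.14 per 1000 below 10, but 14.2 and 16.3 between 10 and 25, so the upper range was not matched. Below 10 UMIs of neuronal markers per 1000, Cntn2 was at 115, 82.1, 40.5 and 21.4 CPM in dividing cells and at 284, 402.5, 49.1 and 77.4 CPM in non-dividing cells of tumours 1 to 4. Between 10 and 25 it was at 244, 291, 122 and 101.5 CPM against 1186, 973, 230 and 209.6 CPM. For Cntn2, non-dividing cells were thus higher in 4 of 4 tumours in both ranges, and within each class the upper range was higher in 4 of 4 tumours. In the lower range the dividing class gave 39 UMIs of Cntn2 over 591 cells and the non-dividing class 34 over 269 cells. The other members called did not do so in the lower range. Ank3, below 10, was at 459, 401.5, 259 and 242 CPM in dividing and 442, 805, 196.5 and 279 CPM in non-dividing cells, higher in 2 of 4 tumours. Cadm3, below 10, was at 19.1, 91.3, 40.5 and 27.6 CPM against 31.6, 168, 16.4 and 31.0 CPM, higher in 3 of 4 tumours, on 27 and 11 UMIs. Between 10 and 25 both were higher in non-dividing cells in 4 of 4 tumours.

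Early neuronal cells, against non-dividing cells, had 7 of the 8 tested members called, all higher, while 7.32% of all genes tested were called higher. The median log2 fold of the 8 was 1.60, beside -0.07 for all genes tested. Cntn2 rose by 1.80 ± 0.17 (adjusted p = 2.01e-12) and was higher in 4 of 4 tumours. Gpm6a rose by 1.73 ± 0.23, Ank2 by 1.68 ± 0.22, Cadm3 by 1.60 ± 0.30, Nrcam by 1.48 ± 0.28 and Ank3 by 1.12 ± 0.16, with adjusted p between 2.98e-08 and 8.44e-05, each in 4 of 4 tumours. The smallest rise was that of Ncam1, by 0.63 ± 0.22 (adjusted p = 0.037, 4 of 4 tumours). L1cam had a fold as large as that of Cadm3, 1.60 ± 0.59, on 20 and 17 UMIs, and missed the threshold (adjusted p = 0.051), but passed it with DESeq2 (adjusted p = 0.0477) and with scaling by library size alone (0.0483). Cntn1 was higher in 4 of 4 tumours, with 15 UMIs against 5, and its log2 fold in a fit with no filter was 2.55 ± 0.72 (adjusted p = 0.015).

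In tumours 1 and 2 alone Ncam1 (0.45, adjusted p = 0.449) and Cadm3 (1.01, adjusted p = 0.1) were not called. Leaving out tumour 2, 3 or 4 ended the call of Ncam1 (adjusted p = 0.0669, 0.0836 and 0.346), and without tumour 2 L1cam was called (2.04, adjusted p = 0.0267). Cntn1 passed the filter and was called without tumour 3 or 4 (adjusted p = 0.0376 and 0.0281). Among cells of at least 1000 UMIs, where 6 members passed the filter, Ncam1 and Ank2 were not called, and Cntn2, Gpm6a, Cadm3 and Ank3 were.

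**Figure D2:**
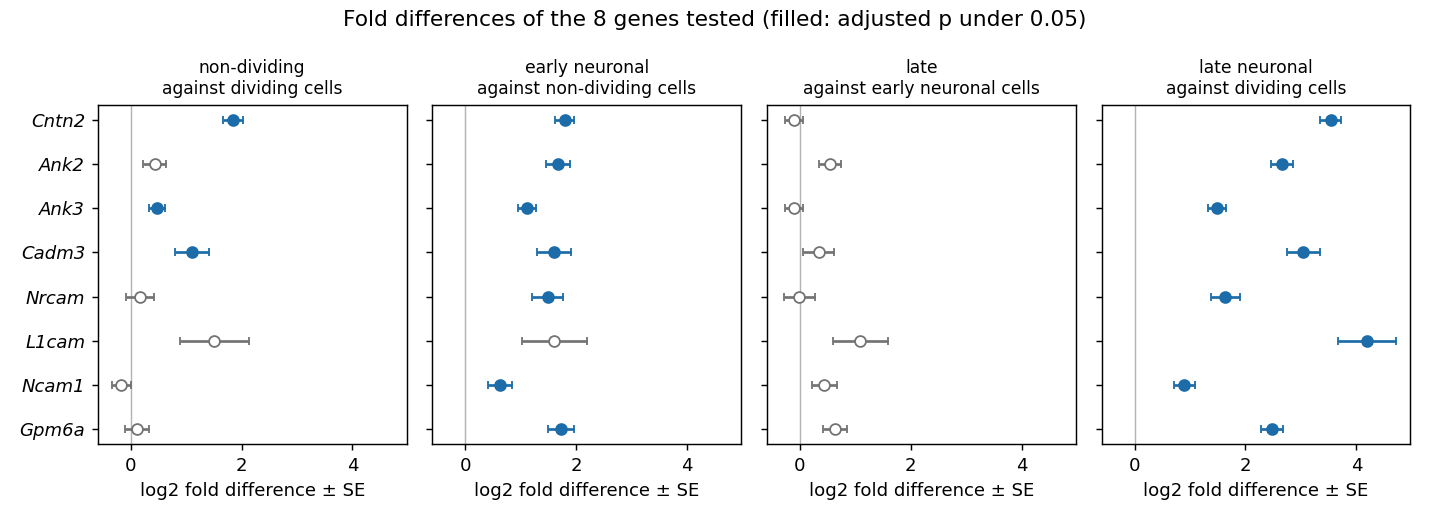
Log2 fold differences (x axis) of the 8 genes tested, with standard errors, in the 4 comparisons of summed counts. Filled points have adjusted p under 0.05; 3, 7, 0 and 8 genes are filled from left to right.

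Late against early neuronal cells gave 0 members called by edgeR and 0 by DESeq2, while 0.45% of all genes tested were called higher. At an unadjusted p under 0.05, 3 of the 8 passed, against 290 of 3114 genes. These were Gpm6a (log2 fold 0.63 ± 0.21, adjusted p = 0.161), Ank2 (0.54 ± 0.20, adjusted p = 0.239) and L1cam (1.09 ± 0.49, adjusted p = 0.419). Ncam1 had 0.44 ± 0.23 and Cadm3 0.33 ± 0.29. The folds of Cntn2, Ank3 and Nrcam were -0.11 ± 0.17, -0.11 ± 0.17 and -0.02 ± 0.28. With Leiden clusters, whose early and late neuronal groups were cut elsewhere (99 late neuronal cells fell in the early cluster and 60 early ones in the late cluster), Ank2 (1.33), Gpm6a (1.21) and L1cam (2.44) were called, with adjusted p from 7.04e-10 to 2.86e-06, where 3.36% of the 4042 genes tested in that fit were called higher. In both ways of drawing the classes, which divide the same cells, these 3 had the largest folds of the 8 in this comparison.

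Late neuronal against dividing cells spans the whole course, and 8 of the 8 tested members were called higher, while 16.4% of all genes tested were. The median log2 fold of the 8 was 2.57, beside -0.04 for all genes tested. L1cam rose by 4.20 ± 0.52 (adjusted p = 1.99e-09), on 39 and 12 UMIs, and Cntn2 by 3.54 ± 0.19 (adjusted p = 1.23e-22). Cadm3 rose by 3.04 ± 0.30, Ank2 by 2.65 ± 0.20, Gpm6a by 2.48 ± 0.20, Nrcam by 1.64 ± 0.27, Ank3 by 1.48 ± 0.16 and Ncam1 by 0.90 ± 0.19 (adjusted p = 0.000135). All 8 were higher in 4 of 4 tumours. Cntn1, with 26 and 14 UMIs, was higher in 4 of 4 tumours too, and had a log2 fold of 3.11 ± 0.53 (adjusted p = 1.53e-07) in the fit with no filter. In tumours 1 and 2 alone the call of Ncam1 ended (0.50, adjusted p = 0.173).

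Markers of other cell types were read in the same sums. Astrocyte and radial glia markers took 925, 1031, 426 and 490 CPM in dividing and 1304, 1383, 473 and 752 CPM in non-dividing cells of tumours 1 to 4. They were higher in non-dividing cells in 4 of 4 tumours, as were Cntn2, Cadm3 and L1cam. In late neuronal cells the astrocyte and radial glia markers took 326 to 1044 CPM. From dividing to non-dividing to late neuronal cells, microglial markers took 35.9 to 185, 38.1 to 158.5 and 25.1 to 102 CPM, endothelial markers 177.5 to 518, 151 to 401.5 and 168 to 351 CPM, and oligodendrocyte markers 526.5 to 816, 588 to 866 and 427 to 1249 CPM. Of the 18 microglial markers 12 were at 0 in late neuronal cells, among them Cx3cr1, P2ry12 and C1qa, and of the 18 oligodendrocyte markers 6 were, among them Mog and Olig2. Markers of GABAergic interneurons and Purkinje cells, of which 4 of 11 were measured, were higher in non-dividing and in early neuronal than in dividing cells in 4 of 4 tumours. They took 604, 728, 439.5 and 411.5 CPM in dividing cells of tumours 1 to 4, 1059, 798, 502 and 523 CPM in non-dividing, 1085, 1239, 1099 and 777 CPM in early and 854, 798, 477 and 538 CPM in late neuronal cells. Nearly all of these UMIs were of Lhx1 (771 in dividing, 478 in non-dividing, 242 in early and 144 in late neuronal cells), while Pcp2, Car8 and Calb1 had 1, 0 and 2 UMIs in early neuronal cells. Markers of unipolar brush and nuclear neurons, 2 of 5 measured, took 13.1 to 21.8 CPM in dividing, 44.0 to 103 in early and 0 to 45.8 in late neuronal cells. The part of such transcripts in the members' values was not tested.

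Along the neuronal marker share itself, the members approached their highest level at different paces. Cells below the dividing limit were divided by UMIs of neuronal markers per 1000, from 0 to 10, 10 to 20, 20 to 30, 30 to 40 and 40 or more. Ank3 stood at 37.6% of its highest mean level in the 10 to 20 range and at 91.4% in the 20 to 30 range. Cntn2 went from 16.4% to 57.9%, Nrcam from 27.7% to 64.7% and Ncam1 from 41.0% to 64.1%. Gpm6a reached 36.7%, L1cam 42.2%, Cadm3 43.2% and Ank2 45.9% in the 20 to 30 range. The highest mean of 8 members lay at 40 or more, and that of Cntn1 at 20 to 30. No test was made of the order, and the SD over tumours was large: Ank3 was 1205 ± 402 CPM in the 20 to 30 and 1318 ± 279 CPM in the 40 or more range (SD, n = 4).

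**Figure D3:**
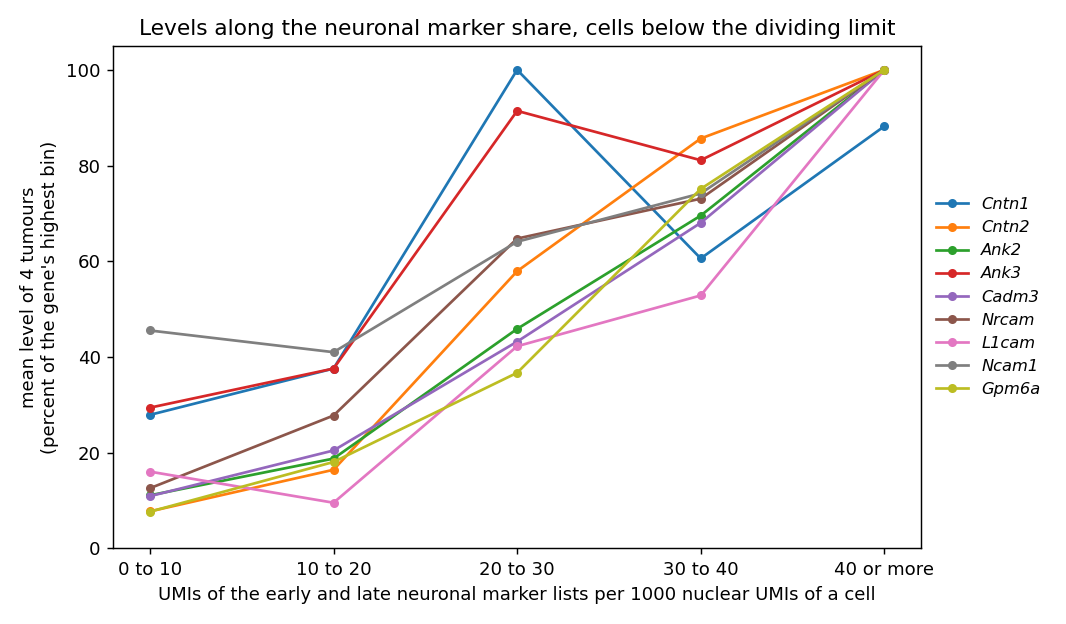
Mean level over 4 tumours, as percent of each gene's highest range (y axis), by the UMIs of neuronal markers per 1000 nuclear UMIs of a cell (x axis), for cells below the dividing limit. Ank3 is at 91.4% of its highest level in the 20 to 30 range, where Gpm6a is at 36.7%.

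Single cells showed the same course. Each cell was thinned at random to 500 UMIs, since median depth fell from 950.5 UMIs in dividing to 720.5 in late neuronal cells. Cntn2 was detected in 6.83% of dividing cells (exact binomial 95% interval 5.53 to 8.33), 14.9% of non-dividing (12.5 to 17.6), 48.3% of early (42.4 to 54.2) and 46.8% of late neuronal cells (40.9 to 52.8). In tumours 1 to 4 the early share was 73.8%, 69.7%, 26.3% and 22.4%. Ank3 was detected in 17.0%, 20.5%, 41.7% and 38.7% of the cells of the 4 classes, Gpm6a in 6.60%, 8.78%, 20.1% and 31.0%, and Ank2 in 6.45%, 8.27%, 25% and 29.6%. Ncam1 was detected in 14.6% of dividing and 26.4% of late neuronal cells. Without thinning, as means over tumours, Ank3 was in 29.9% of dividing and 49.8% of late neuronal cells. Intervals cover counting error only.

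The background from free RNA was read in 45 microglial and endothelial cells, which should lack most of these genes and had median depths of 1207 and 1611 UMIs before thinning. Cntn2 and Ncam1 were in 0 of 45 thinned cells, a count whose exact 95% interval ends at 7.87%. Ank3 was in 3 of 45 (6.67%, 1.40 to 18.3), Ank2 in 4 of 45 (8.89%), Nrcam in 2 of 45 (4.44%), and Cadm3, L1cam and Gpm6a each in 1 of 45 (2.22%, 0.0563 to 11.8). Of the 9 members, Ncam1 alone had a thinned share in dividing cells whose interval lay above that of the background. In non-dividing cells Ncam1 and Cntn2 did. These intervals pool the cells of 4 tumours. The thinned non-dividing share of Cntn2 was 31.0%, 23.9%, 6.83% and 6.19% in tumours 1 to 4. Tumours 3 and 4 were thus within the background limit of 7.87%. Without thinning, where the background cells were the deeper ones, Cntn2 (9.58 to 13.1% against at most 7.87%) and Ank3 (27.95 to 33.0% against 5.05 to 26.8%) in dividing cells lay above the background too. Single tumours did not all do so: Cntn2 was in 6.46% of dividing cells in tumour 4 and Ank3 in 22.6% in tumour 3. By level, the background cells held 92.6 CPM of Ank3 (7 UMIs; exact Poisson 95% interval 37.2 to 191) and 26.4 CPM of Gpm6a (2 UMIs; 3.20 to 95.5), below the lowest dividing tumour in both cases. Nrcam, at 66.1 CPM in the background cells (5 UMIs; 21.5 to 154), was above its dividing level in tumour 4. L1cam, at 13.2 CPM (1 UMI; 0.335 to 73.7), was above its dividing mean of 8.77 CPM, and for Cadm3, at the same value, the interval covered all 4 dividing tumours. Ank2, at 8.89% of background cells, was in fewer dividing and non-dividing cells after thinning and in more without it (13.4% in both classes), and its level of 52.9 CPM (14.4 to 135) overlapped the dividing tumours. The thinned and unthinned shares of L1cam in dividing and in non-dividing cells lay below its background share. In late neuronal cells the thinned intervals of Cntn2, Ank2, Ank3, Cadm3, Ncam1 and Gpm6a lay above those of the background, and those of Nrcam, L1cam and Cntn1 overlapped them.

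Detection of several members in 1 cell was more frequent in the neuronal classes. At 500 UMIs, 0.606 of the 9 genes were detected in the mean dividing cell, 0.772 in the mean non-dividing, 1.88 in the mean early and 2.21 in the mean late neuronal cell. None of the 9 was detected in 54.3% of dividing, 49.5% of non-dividing, 13.2% of early and 7.39% of late neuronal cells. At least 3 of the 9 were detected in 1.97%, 6.49%, 26.7% and 37.3% of the cells of these classes. The late share with at least 3 was 50%, 41.5%, 36.4% and 22.6% in tumours 1 to 4, above every dividing value (0.481% to 3.31%). For non-dividing cells, tumours 1 and 2 had 16.1% and 10.4%, and tumours 3 and 4 had 0.621% and 2.61%. The largest number in 1 cell was 7.

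**Figure D4:**
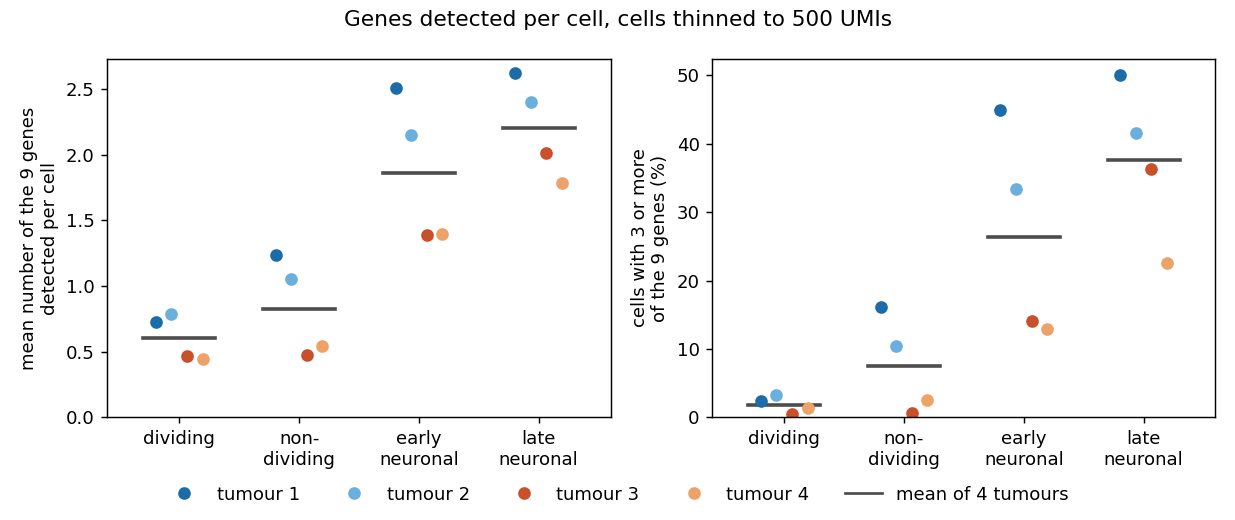
Mean number of the 9 genes detected per cell (left y axis) and percent of cells with 3 or more of them (right y axis) in the 4 classes (x axis), cells thinned to 500 UMIs. Points are tumours and bars their mean; tumours 1 and 2 lie above tumours 3 and 4 in each class.

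Whether members were met in the same cells more often than their shares give was counted for each of the 36 pairs. The expected number is the product of both shares within each tumour and class, summed over tumours, and pairs with at least 5 expected cells are described, with no test. In early neuronal cells 434 joint detections stood beside 420.2 expected over 22 pairs, a ratio of 1.03, and in late neuronal cells 598 beside 574 over 28 pairs, a ratio of 1.04. Dividing cells gave a ratio of 1.11 over 16 pairs. In non-dividing cells the ratio was 1.30 over 17 pairs, of which 14 were above the expected number. Cntn2 with Ank3 was found in 48 non-dividing cells against 29.7 expected, and Cntn2 with Ank2 in 23 against 12.6, each above in 4 of 4 tumours. Cntn2 with Cadm3 was found in 15 against 7.94 (3 of 4 tumours), and Ank2 with Gpm6a in 12 against 5.86 (4 of 4 tumours). Ank2 with Ank3 was below, with 13 against 15.3. Among deeper cells thinned to 1000 UMIs the non-dividing ratio was 1.27, and with a mitochondrial share of at most 10% it was 1.31. The class covers neuronal marker shares from 0 to 25 per 1000, over which Cntn2 differed, and the part of that range in the joint detections was not tested.

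**Figure D5:**
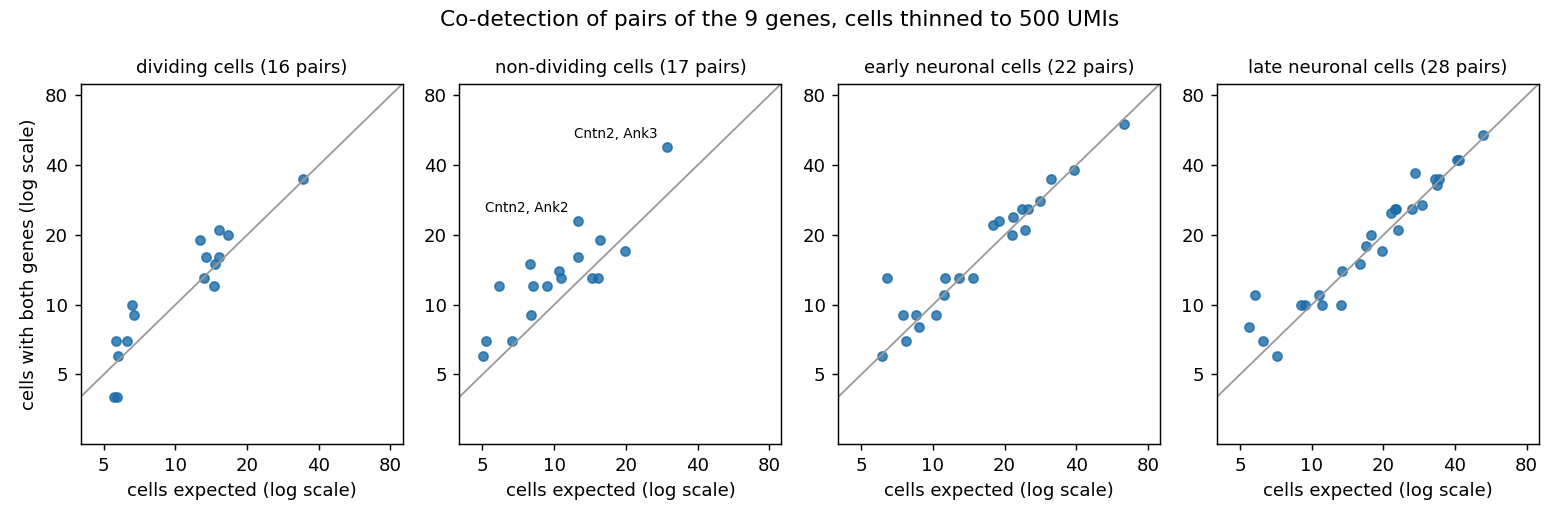
Cells with both genes of a pair (y axis, log scale) against the number expected from both shares (x axis, log scale), for pairs with at least 5 expected cells in each class. The grey line is equality; 14 of 17 pairs lie above it in non-dividing cells and 11 of 22 in early neuronal cells.

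Outside the granule lineage, Cntn1 and Ncam1 were most abundant in 35 oligodendrocyte-lineage cells, pooled over the tumours. Cntn1 was at 574 CPM there (34 UMIs; exact Poisson 95% interval 398 to 802.5), against mean levels of 60.8 ± 50.1 in early and 114 ± 98.1 CPM in late neuronal cells (SD, n = 4). The UMIs came from 18 of the 35 cells, with 7, 11, 1 and 15 UMIs in tumours 1 to 4 (4, 12, 3 and 16 cells), and 4 at most in 1 cell. Ncam1 was at 557 CPM (384 to 783), beside 549 ± 48.5 CPM in late neuronal cells. L1cam had 0 UMIs in these cells, which allows up to 50.7 CPM (3 counts of the total; the exact Poisson limit is 62.3 CPM). In 32 astrocyte or radial glia cells, Ank2 was at 459 CPM (309 to 655) and Nrcam at 45.9 CPM (9.46 to 134).

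Other genes of axonal adhesion and of the ankyrin and spectrin skeleton, 45 in the tables, were examined alongside. Of these, 14 passed the filter. In late neuronal against dividing cells 9 were called higher and 3 lower, where 16.4% and 18.0% of all genes tested were, with a median log2 fold of 1.06 beside -0.04 for all genes tested. Cadm2, a relative of Cadm3, rose by 4.43 ± 0.53 (adjusted p = 7.98e-10), from 7.78 ± 5.86 to 204 ± 101 CPM (SD, n = 4). Epb4.1l1, which links spectrin to the membrane, rose by 3.54 ± 0.30 (adjusted p = 6.17e-15), from 31.1 ± 23.2 to 363 ± 270 CPM. The presynaptic adhesion gene Nrxn2 rose by 2.39 ± 0.30 and the spectrin gene Sptan1 by 1.44 ± 0.31, each in 4 of 4 tumours. Those called lower were Cadm1, another relative of Cadm3, and Ezr and Rdx, which link actin to the membrane. Between early neuronal and non-dividing cells 3 were called higher (among them Epb4.1l1 and Sptbn1) and 2 lower (Cadm1 and Ezr), where 7.32% and 7.58% of all genes tested were. Between non-dividing and dividing cells 2 were called higher (Cadm4 and Epb4.1l1; 2.73% of all genes) and 0 lower. Cadm2 was the 1 of the 14 called between late and early neuronal cells, higher in late ones (0.45% of all genes), and this call ended without tumour 3.

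The genes whose pattern was most like that of a member were found among 4916 candidates, over the 16 log2 CPM values of tumours and classes after centring within each tumour. The points share libraries and classes, and the values are a description. Cntn2 was closest to Apc (Pearson r = 0.967), Kdm5b (0.962) and Tnik (0.959). Ank3 was closest to Tubb2a (0.978), Elmo1 (0.973) and Apc (0.966), and Ank2 to Akap12 (0.972), Sept3 (0.962) and Mtss1 (0.961). For Gpm6a these were Rtn4 (0.976), Thra (0.956) and Clvs1 (0.954), and for Cadm3 they included Chd3 (0.954) and Serinc1 (0.943). L1cam was closest to Arpp21 (0.955), Sema6a (0.954) and Nbea (0.938). The closest of Nrcam were Ctnna2 (0.902), Kif1b (0.891) and Sgip1 (0.891), and of Ncam1 Plcb1 (0.905), Srgap2 (0.899) and Cplx1 (0.883), lower than for the others.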

How the data were processed

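The deposited values are whole-number UMI counts per gene and barcode, 1 table per tumour, with no normalization. STAR and mm10 are named in the submitters' processing notes. How reads of overlapping genes were counted is not given in the sources used here. A further 6 tables (11203 cell columns) match no labelled sample and were not used here.

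The members, lists and alternatives were chosen with earlier results of these data known, and the class limits were set after the data were examined. Named genes were the 9 members, the 5 largest folds of the adhesion list in late neuronal against dividing cells with the same sign in every tumour, and the 3 genes of most similar pattern; the values of 2 of these genes are not reported here. Scrublet (scanpy 1.11.5, expected share 6%) marked 14 doublets in all, which were removed; so low a share leaves most doublets in. Cells with at least 4 markers of another cell type were set apart.

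Counts were summed over 16 tumour and class groups and tested by the quasi-likelihood method of edgeR 4.0.16 (run in R 4.3.3). The fit followed filterByExpr and TMM scaling, with the tumour as a block and a threshold of 0.05. In simulated counts of late neuronal against dividing cells, the test recovered 91.5% of 4-fold and 38.6% of 2-fold changes. Of its calls there 3.54% were false. Differences near 2-fold can therefore be missed. DESeq2 1.42.0 was an alternative. The tumour is a block because its sums come from 1 tumour: deviations of its classes correlated with r of 0.323 to 0.857 over 3244 genes. A standard error is the log2 fold divided by the square root of F. Levels are UMIs per 1000000 UMIs of the same cells (CPM).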

Additional observations from a re-analysis of the deposited data

Results flagged for a closer look

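In 81 sets of 4 tumours (levels and shares of the 9 members, over all cells and by class), 7 had 1 tumour far from the other 3 relative to their range; chance alone gives about 1 in 20 such sets. Cadm3 in late neuronal cells stood apart in tumour 3, with a level of 803 CPM against 287 to 359 CPM and a share of 36.4% of thinned cells against 16.9% to 18.8%. In the same class and tumour Ank3 was low, in 27.3% of cells against 40% to 42.5%. Ank2 stood apart in tumour 1, in 38.8% of early neuronal cells against 18.8% to 21.2% and in 42.5% of late neuronal cells against 23.1% to 25.5%. L1cam in dividing cells was at 21.2 CPM in tumour 2 against 3.27 to 6.23 CPM, all on few UMIs. Cntn1 was in 0.645% of the non-dividing cells of tumour 1, a single cell, and in 0% elsewhere.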

How the results depend on the processing

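Members called between late neuronal and dividing cells, 8 in the fit reported, stayed between 6 and 9 under all alternatives. Without the tumour as a block, 0 were called between non-dividing and dividing cells (3 with it), 1 between early neuronal and non-dividing cells (7 with it), and 6 between late neuronal and dividing cells. For non-dividing against dividing cells, Leiden clusters gave 0, cells of at least 1000 UMIs 1, a mitochondrial share of at most 10% 1, tumours 3 and 4 alone 1, and leaving out each tumour in turn 1 to 3. For early neuronal against non-dividing cells, cells of at least 1000 UMIs gave 4, and leaving out each tumour 7, though not the same 7: Ncam1 gave way to L1cam without tumour 2 and to Cntn1 without tumour 3 or 4. For late against early neuronal cells, where 0 were called, Leiden clusters gave 3 and cells of at least 1000 UMIs 1. A split of neuronal cells at the median, added after the data were seen, gave 3, 9, 0 and 9. No called fold of a member changed sign under any alternative; of 528 values, 39 were no longer past the threshold and 8 newly so. Other adhesion genes called higher ranged from 0 to 2, 0 to 6, 0 to 6 and 3 to 13 over the alternatives in the 4 comparisons (2, 3, 1 and 9 in the fit reported). DESeq2 ended the calls of Ank3 (non-dividing cells) and Ncam1 (early neuronal cells) and added that of L1cam (early neuronal cells). Scaling by library size alone added that of L1cam too. Depth limits Cntn1 and L1cam above all, and shares of cells depend on the depth chosen.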
